A study of Mus musculus with 36 samples.

Results

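The 6 skeletal myosin heavy chain genes Myh4, Myh1, Myh2, Myh7, Myh3 and Myh8 were followed in RNA sequencing libraries of mouse gastrocnemius, the large calf muscle. They were taken by gene symbol from a table of 46893 annotated genes, and all 6 symbols were found once. The libraries came from 36 wild-type male C57BL/6 mice, 3 to 4 weeks old at the start and studied for 12 weeks, with 6 mice in each of 6 groups. NFD-C mice were sedentary on a diet with 16% of energy from fat, and HFD-C mice were sedentary on a diet with 45% of energy from fat. The 4 running groups ate the high-fat diet and had a wheel in the cage, with daily averages of 2.1 km (HFD-25%), 4.2 km (HFD-50%), 6.3 km (HFD-75%) and 8.3 km (HFD-U, unrestricted), the others being stopped by a brake at their set distance. Each library held the RNA of 1 pulverized gastrocnemius with all its cell types, so fewer fibres of a type and less RNA per fibre cannot be told apart in any value given here.

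Myosin heavy chain is the motor protein of the thick filament, and each muscle fibre is named after the heavy chain it makes. Myh4, Myh1 and Myh2 encode the fast IIB, IIX and IIA chains, in falling order of contraction speed, Myh7 encodes the slow type I chain that is shared with the heart, and Myh3 and Myh8 encode the embryonic and neonatal chains that are largely shut off in adult limb muscle. Mouse gastrocnemius is mostly a fast muscle, with slow and IIA fibres gathered in its deep part, and endurance running is known to move fibres from IIB towards IIX and IIA.

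The 5 fast and developmental genes lie side by side on the plus strand of chromosome 11 in the order Myh3, Myh2, Myh1, Myh4 and Myh8, followed by the eye muscle gene Myh13. In the coordinates of the count table, which are those of GRCm39, the run of 6 genes spans 293.3 kb, from 66969101 to 67262413. Myh7 stands apart on the minus strand of chromosome 14, at 55208141 to 55232083. A long noncoding RNA on the minus strand, Myhas, starts 530 bases upstream of Myh4, runs away from it and overlaps the last 380 bases of Myh1.

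The sequence just upstream of the start sites is shown because the 3 adult fast genes and the slow gene differ there. Each line gives 250 bases before the RefSeq start site in GRCm38.p6, 5′ to 3′ on the strand of the gene. Capitals mark 3 blocks that Myh4, Myh1 and Myh2 have in common, and each TATAAA on the plus strand. Myh4 lies at chr11:67237562-67237811, Myh1 at chr11:67199852-67200101, Myh2 at chr11:67170777-67171026, Myh8 at chr11:67276874-67277123 and Myh7, on the minus strand, at chr14:54994627-54994876.
Myh4: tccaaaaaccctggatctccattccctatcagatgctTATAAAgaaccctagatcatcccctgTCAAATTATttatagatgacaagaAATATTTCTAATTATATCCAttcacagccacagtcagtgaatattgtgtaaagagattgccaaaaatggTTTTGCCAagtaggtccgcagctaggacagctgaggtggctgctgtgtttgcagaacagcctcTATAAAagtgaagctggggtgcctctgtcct
Myh1: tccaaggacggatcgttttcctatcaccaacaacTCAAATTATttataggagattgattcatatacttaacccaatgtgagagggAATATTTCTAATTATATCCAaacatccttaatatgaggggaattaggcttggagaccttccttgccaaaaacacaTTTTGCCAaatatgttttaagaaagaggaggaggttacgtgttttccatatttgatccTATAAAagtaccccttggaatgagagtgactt
Myh2: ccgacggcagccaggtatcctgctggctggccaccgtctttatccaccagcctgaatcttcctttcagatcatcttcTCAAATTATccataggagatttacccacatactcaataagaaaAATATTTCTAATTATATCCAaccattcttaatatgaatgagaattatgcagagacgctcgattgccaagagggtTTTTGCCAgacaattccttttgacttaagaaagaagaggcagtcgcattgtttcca
Myh8: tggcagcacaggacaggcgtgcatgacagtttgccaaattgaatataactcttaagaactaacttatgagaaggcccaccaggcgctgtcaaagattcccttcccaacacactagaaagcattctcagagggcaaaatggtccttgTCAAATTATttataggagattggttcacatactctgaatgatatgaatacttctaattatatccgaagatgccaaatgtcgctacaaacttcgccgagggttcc
Myh7: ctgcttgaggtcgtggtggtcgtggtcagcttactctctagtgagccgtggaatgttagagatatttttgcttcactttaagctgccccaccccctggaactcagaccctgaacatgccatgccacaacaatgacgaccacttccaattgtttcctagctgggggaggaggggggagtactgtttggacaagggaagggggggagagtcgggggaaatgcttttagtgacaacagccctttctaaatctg

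The 20-base block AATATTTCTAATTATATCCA was present in Myh4, Myh1 and Myh2 and in 3 of 32851 mouse upstream windows of this length (0.00913%), that is, in those of these 3 genes only. Its first base lay 163 bases before the start of Myh4, 165 before that of Myh1 and 130 before that of Myh2. The nearest match in Myh8 had 18 of the 20 bases, that in Myh7 had 13 and that in Myh3 had 12. The block TCAAATTAT was found in 4 members, the 3 adult fast genes and Myh8, and in 0.174% of windows, and TTTTGCCA in the 3 adult fast genes and in 0.980% of windows. The 3 blocks were picked because Myh4, Myh1 and Myh2 share them, so their presence in these genes was fixed in advance. Both strands were searched for every motif.

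Of the other motifs searched, TATAAA was found in 4 members (12.4% of windows), and the MEF2 site in Myh4, Myh1 and Myh8 (2.92% of windows), where it overlapped the end of TCAAATTAT. The E-box CANNTG was found in 4 members and 66.2% of windows, CATTCC in 3 members and 12.6%, GGAAA in 4 members and 55.6%, and the CArG box in 1 member and 1.47%. These are matches of letters, not binding sites.

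The transcripts are close copies of each other, which bears on how reads were assigned. Myh1 and Myh2 were identical at 89.5% of aligned transcript bases, Myh4 and Myh1 at 88.7%, Myh4 and Myh2 at 86.7%, and Myh7 and the cardiac gene Myh6 at 88.1%. Windows of 150 bases that were exactly the same in another Myh transcript made up 0.511% of Myh4, 2.49% of Myh1, 2.06% of Myh2, 5.43% of Myh7, 0.306% of Myh3 and 1.60% of Myh8. The part of wrongly assigned reads in the low counts of Myh3 and Myh8 was not tested.

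Depth was between 13060090 and 27981702 counts per library, with a median of 16710687.5, and the 6 genes took 3.39% to 6.74% of them. The libraries formed 2 sets that differed in how much of their counts came from ribosomal RNA-linked features: all NFD-C mice and HFD-C mice 1 to 4 lay at 2.01% to 3.80%, while HFD-C mice 5 and 6 and all 24 running mice lay at 0.404% to 1.02%. Running and library set therefore cannot be told apart except through these 2 HFD-C mice. Skeletal muscle markers such as Ckm and Acta1 summed to 58709 to 115127 CPM (counts per 1e+06 counts, scaled with TMM factors), and cardiac markers to 0.0619 to 5.21 CPM.

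Myh4 was the leading heavy chain gene in all 36 mice. Its share of the counts of the 6 genes averaged 86.2% ± 10.2 (SD, n = 36), followed by Myh1 at 8.31% ± 6.13, Myh2 at 5.09% ± 4.30 and Myh7 at 0.332% ± 0.411. The developmental genes Myh3 and Myh8 took 0.00937% and 0.00669%. Per kb of transcript, Myh4 ranked 13th of 29344 genes with counts, at a mean of 7941 CPM per kb, Myh1 62nd at 718 CPM per kb and Myh2 103rd at 442 CPM per kb. Myh7 had a mean level of 24.7 CPM per kb, Myh3 of 0.767 CPM per kb and Myh8 of 0.603 CPM per kb. On this scale Myh1 exceeded Myh2 in 35 of 36 mice and Myh2 exceeded Myh7 in all 36, while Myh3 exceeded Myh8 in 20.

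**Figure D1:**
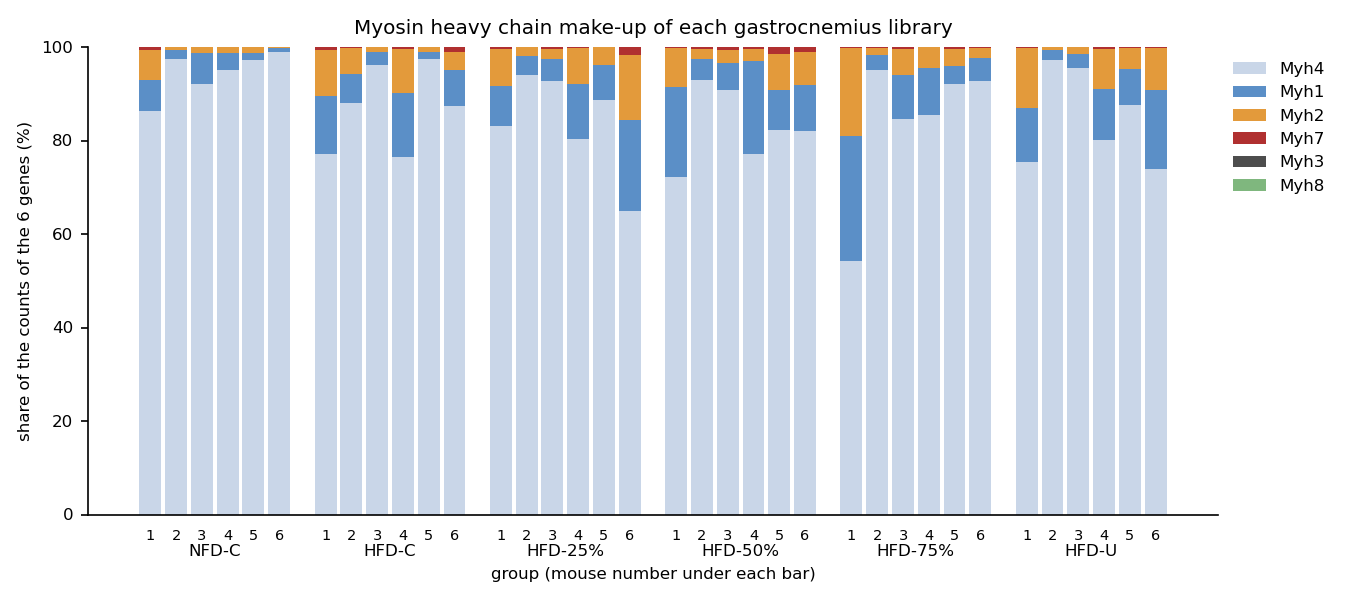
Stacked bars give, for each of the 36 mice, the share (%) of each gene in the counts of the 6 myosin heavy chain genes, with the mouse number under each bar. Myh4 fills 54.1% to 98.9% of a bar, and the rest is mostly Myh1 and Myh2, with Myh3 and Myh8 too low to be seen.

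The make-up differed widely from mouse to mouse. The Myh4 share was above 90% in 16 mice, below 80% in 8 and below 70% in 2, and it ranged from 54.1% in HFD-75% mouse 1 to 98.9% in NFD-C mouse 6. The Myh1 share spanned a 30.01-fold range, from 0.897% to 26.9%, and the Myh2 share a 104-fold range, from 0.179% to 18.6%. The same pair of mice held the ends of both ranges. All Myh4 shares of the 6 groups overlapped, as the bars of each mouse show.

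In the sedentary NFD-C mice, Myh4 had a lowest, median and highest share of 86.3%, 96.1% and 98.9%. In the sedentary HFD-C mice, these shares were 76.4%, 87.7% and 97.4%. Of the NFD-C mice 5 were above 90%, against 2 of the HFD-C mice, but the ranges of the groups overlapped. Running mice reached nearly as high as the HFD-C mice and lower. The Myh4 share in HFD-25% mice was 64.9%, 85.9% and 94.1% (lowest, median, highest), and in HFD-50% mice 72.2%, 82.1% and 92.9%. In HFD-75% mice it was 54.1%, 88.8% and 95.1%, and in HFD-U mice 73.8%, 83.8% and 97.3%.

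By group mean, the Myh4 share was 94.5% ± 4.68 (SD, n = 6) in NFD-C, 87.1% ± 9.01 in HFD-C, 84.96% ± 10.1 in HFD-U, 84.0% ± 15.2 in HFD-75%, 84.0% ± 10.8 in HFD-25% and 82.9% ± 7.90 in HFD-50%. Only the step from NFD-C to HFD-C, 7.41 percentage points, was larger than the smaller SD of the neighbouring groups. That step did not pass either (exact permutation p = 0.113). The rule sets neighbouring means against the spread of single mice, so it does not test an order of the 5 high-fat groups.

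Myh1, the IIX gene, was the second most abundant chain. Its share was 0.897%, 2.68% and 6.72% (lowest, median, highest) in NFD-C mice and 1.42%, 6.98% and 13.7% in HFD-C mice. Among running mice the lowest share was 2.02%, the median 8.54% and the highest 26.9%. The group means ran from 3.52% ± 2.59 in NFD-C and 7.39% ± 5.02 in HFD-C to 8.66% ± 5.65 in HFD-U, 9.37% ± 5.74 in HFD-25%, 9.67% ± 8.92 in HFD-75% and lastly 11.3% ± 6.66 in HFD-50%. All 4 running means lay above the HFD-C mean, each by less than the SD of the running group. The difference in Myh1 share from HFD-C turned to -1.16 points without HFD-75% mouse 1, to -0.379 points without HFD-U mouse 6 and to -0.0553 points without HFD-25% mouse 6.

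Myh2, the IIA gene, had shares of 0.179%, 1.201% and 6.38% (lowest, median, highest) in NFD-C mice and 1.09%, 4.67% and 9.74% in HFD-C mice. Running mice lay at 0.678%, 4.57% and 18.6%. The means were 1.83% ± 2.27 in NFD-C, 5.11% ± 3.85 in HFD-C, 5.15% ± 2.89 in HFD-50%, 6.04% ± 6.35 in HFD-75%, 6.20% ± 4.82 in HFD-U and 6.23% ± 4.56 in HFD-25%. Apart from NFD-C mouse 1, no NFD-C mouse was above 1.34%. The count of Myh2 relative to Myh1 had a median of 0.532 over the 36 mice, with a lowest value of 0.133 in HFD-50% mouse 4 and a highest of 1.12 in HFD-U mouse 1, the only mouse with more Myh2 than Myh1 counts.

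Myh7, the slow gene, fell into separate ranges. In 7 libraries it had 0 to 25 counts (0 to 1.73 CPM), and in the other 29 it had 239 to 11688 counts (14.8 to 748 CPM). The 7 libraries were NFD-C mice 2, 3, 4 and 6, HFD-C mouse 3 and HFD-25% mice 2 and 5, and every mouse of the 3 groups with the longest distances was in the upper range. Tnni1, the slow troponin I gene, had 0 to 2.14 CPM in the 7 libraries and 4.08 to 253 CPM in the 29. Tnnc1, the slow and cardiac troponin C gene, had 0.277 to 2.11 CPM against 4.33 to 368 CPM. Tnnt1, the slow troponin T gene, overlapped, with 0.302 to 8.01 CPM against 6.75 to 444 CPM. Tnni1 and Tnnc1 were thus lowest in the same libraries as Myh7, which had 0 counts in NFD-C mice 2 and 6.

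The mean Myh7 share was 0.129% ± 0.279 (SD, n = 6) in NFD-C, 0.379% ± 0.438 in HFD-C, and, by rising distance, 0.421% ± 0.612, 0.670% ± 0.496, 0.227% ± 0.178 and 0.165% ± 0.134 in the running groups. With the groups sorted by their means, from HFD-50% down to NFD-C, each difference between neighbours was below the smaller SD of the pair. HFD-50% mice had the highest lowest share, 0.134%, and HFD-25% mouse 6 had the highest share of all, 1.61%.

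Myh3, the embryonic gene, was expressed at a trace. Its level was 0, 1.41 and 7.58 CPM (lowest, median, highest) in NFD-C mice and 1.61, 5.02 and 19.0 CPM in HFD-C mice. Running mice lay at 0.278, 3.99 and 12.2 CPM. The mean was 2.23 ± 2.70 CPM (SD, n = 6) in NFD-C, 7.98 ± 7.11 CPM in HFD-C and 4.42 ± 3.09 CPM in the 24 running mice. HFD-C had the highest mean, and its 6 values overlapped with those of every other group.

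Myh8, the neonatal gene, was also expressed at a trace, and the ranges of all groups overlapped. Its mean level was 4.68 ± 2.62 CPM (SD, n = 6) in NFD-C, 3.34 ± 1.18 CPM in HFD-C and, by rising distance, 4.87 ± 3.05, 3.05 ± 1.86, 3.47 ± 1.68 and 3.13 ± 0.991 CPM in the running groups. The 36 mice spanned 0.751 to 9.90 CPM.

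**Figure D2:**
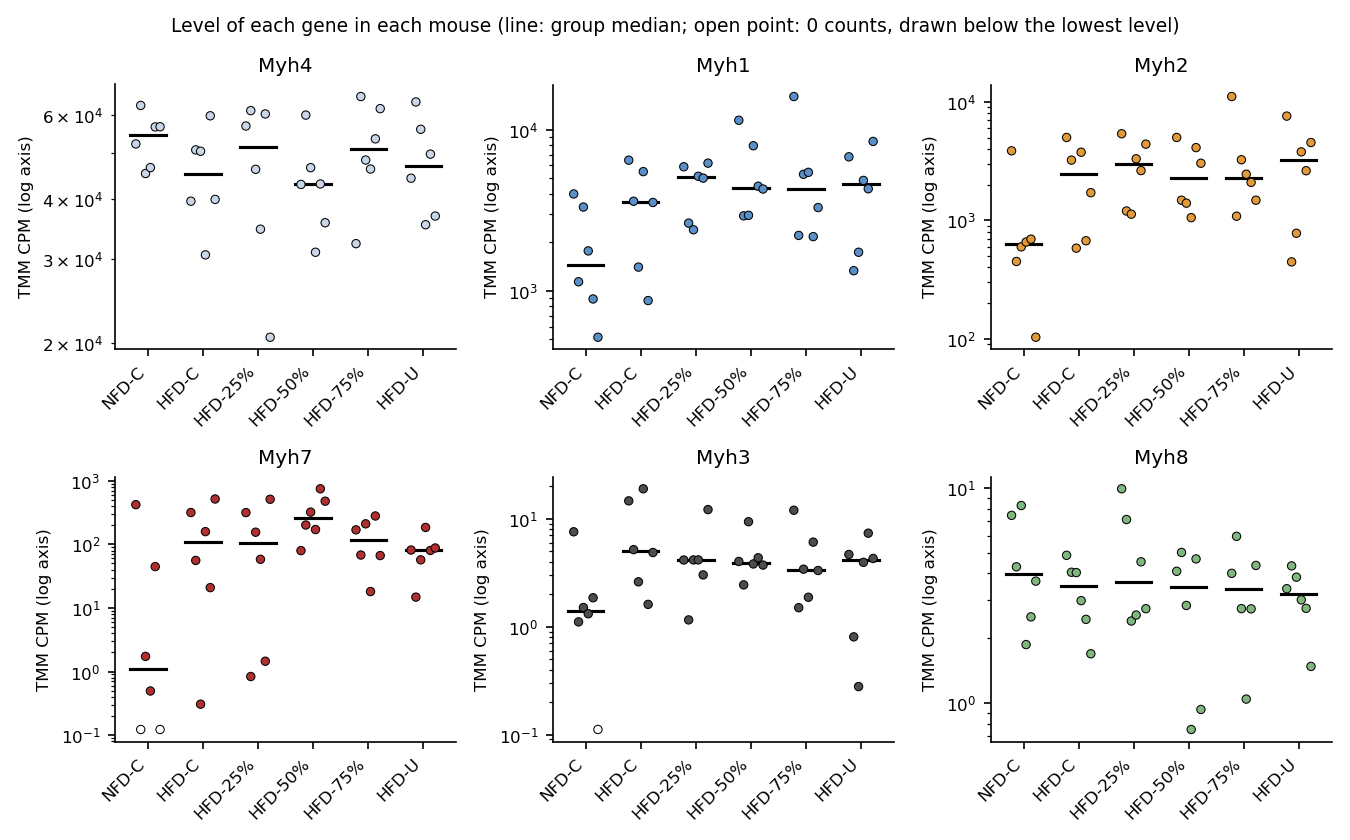
Each point is the TMM-scaled CPM of 1 mouse on a log axis, with 1 panel per gene, 6 mice per group and a line at the group median. Myh7 falls to 1.73 CPM or less in 7 libraries, NFD-C medians of Myh1, Myh2, Myh7 and Myh3 are the lowest of the groups, and the ranges of all groups overlap.

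The first comparison asked whether running changed the heavy chain genes of mice on the high-fat diet. The edgeR test was the quasi-likelihood test, with p adjusted by Benjamini-Hochberg over all genes tested. Without a block for the mouse number, 0 of the 6 genes passed an adjusted or an unadjusted p of 0.05 in any running group against HFD-C. Of all genes, an unadjusted p of 0.05 was passed by 6.98% in the HFD-25% comparison, 10.7% in that of HFD-50%, 5.47% in that of HFD-75% and 5.46% in that of HFD-U. The adjusted threshold was passed by 0.00820% of 12202 genes in HFD-25% and by 0 genes in the other running groups. DESeq2 also called 0 of the 6 genes in these comparisons at either threshold, while over all genes it called 44, 160, 40 and 28 at the adjusted one. In HFD-U against HFD-C the mouse numbers paired the samples. With the number as a block, 1 of the 6 genes passed the unadjusted threshold, beside 1232 of 12023 genes. It was Myh3, at a log2 fold change of -1.24 ± 0.56 (SE), edgeR unadjusted p = 0.0497 and adjusted p = 0.488. The adjusted threshold was passed by 11 genes in all under the block, and by no member. The other HFD-U values, here and below, are given without the block.

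Myh1 was estimated higher than in HFD-C in all 4 running groups, without passing the test in any. Its log2 fold change (edgeR, ± SE) was, from the shortest to the longest distance, 0.33 ± 0.40, 0.67 ± 0.45, 0.68 ± 0.52 and 0.35 ± 0.48, with adjusted p from 0.632 to 0.999. Single mice carried much of this: the HFD-75% value was 0.05 without HFD-75% mouse 1, the HFD-U value 0.08 without HFD-U mouse 6, the HFD-50% value 0.35 without HFD-50% mouse 1 and the HFD-25% value 0.14 without HFD-C mouse 5. Myh2 differed by 0.25 ± 0.51, 0.11 ± 0.51, 0.51 ± 0.58 and 0.39 ± 0.61 in the same order, with adjusted p from 0.962 to 0.999. Each estimate was within 2 standard errors of 0, and the size of difference that 6 mice per group could detect was not computed.

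Myh4 had the smallest standard errors of the members, at 0.02 ± 0.27, -0.07 ± 0.22, 0.17 ± 0.22 and 0.06 ± 0.21 (log2 fold change) by rising distance. Myh7 had the widest errors, with -0.06 ± 1.20, 0.91 ± 0.90, -0.40 ± 0.92 and -1.08 ± 0.88. Its sign thus differed between HFD-50% and HFD-U, and neither estimate passed the test. Myh3 lay below HFD-C in all 4 running groups, by -0.75 ± 0.57, -0.78 ± 0.51, -0.78 ± 0.58 and -1.18 ± 0.64, with unadjusted p from 0.0833 to 0.206. These 4 values share the HFD-C mice.

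**Figure D3:**
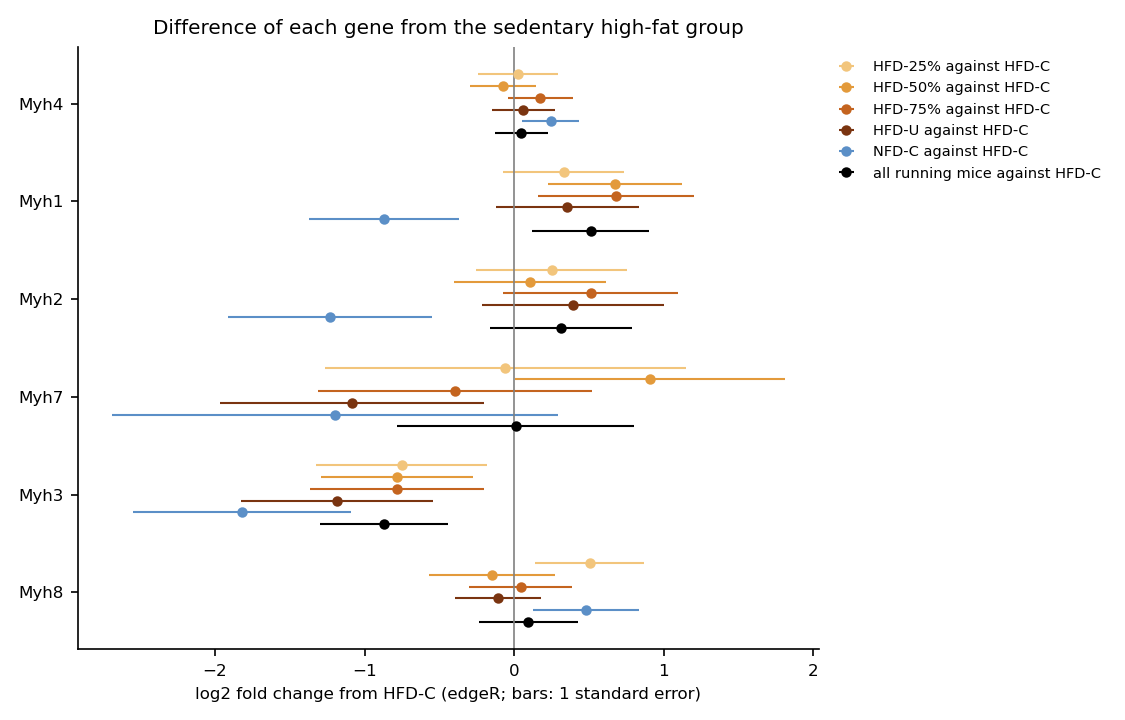
Points give the edgeR log2 fold change of each gene from HFD-C in 6 comparisons, without a block for the mouse number, and bars 1 standard error. Errors are smallest for Myh4 and largest for Myh7, and only Myh3 in NFD-C, at -1.82, passes an unadjusted p of 0.05.

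With the 24 running mice together against HFD-C, 0 of 6 genes passed, against 0.300% of 12006 genes at the adjusted threshold and 9.27% at the unadjusted one. DESeq2 called 0 of the 6 as well. The log2 fold changes were 0.05 ± 0.18 for Myh4, 0.51 ± 0.39 for Myh1, 0.31 ± 0.47 for Myh2, 0.01 ± 0.79 for Myh7, -0.87 ± 0.43 for Myh3 and 0.10 ± 0.33 for Myh8. The lowest p was that of Myh3 (edgeR, unadjusted p = 0.0507, adjusted p = 0.540). Without HFD-C mouse 5 the Myh3 value became -1.07 at an unadjusted p of 0.0191 in the edgeR test, with an adjusted p of 0.379, and without HFD-C mouse 4 it became -0.42.

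The same comparison was made on the shares. The Myh4 share of running mice was lower than that of HFD-C mice by 3.13 percentage points (83.97% against 87.09%), with p = 0.516 in a two-sided exact permutation test and an adjusted p of 0.755 over the 6 comparisons of the gene. Leaving out HFD-C mouse 5 gave -1.06 points for Myh4 and 1.16 for Myh1, and leaving out HFD-C mouse 4 gave -5.26 and 3.62. With all mice, the Myh1 share was higher by 2.35 points (exact permutation p = 0.421) and the Myh2 share by 0.791 points (exact permutation p = 0.702). The lowest p in this comparison was 0.0643 for Myh3 (exact permutation test, adjusted p = 0.234). Over 36 tests of shares, 0 passed the threshold with or without adjustment, although 6 mice against 6 can reach an exact permutation p of 0.00216.

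The HFD-C mice themselves differed by library set. The 4 mice of the high set had a mean Myh4 share of 84.4% (76.4% to 96.2%) and the 2 of the low set 92.4% (87.4% and 97.4%). Within the low set, the only one that holds both running and sedentary mice, the Myh4 share of running mice was lower by 8.45 points (exact permutation p = 0.280) and the Myh1 share higher by 5.17 points (exact permutation p = 0.286), 24 mice against 2. The difference in Myh4 was thus larger than in the whole comparison, and that of Myh3 turned from -0.00839 to 0.00217 points (exact permutation p = 0.646).

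A dose response over the running distance, with a linear and a quadratic term, called 0 of the 6 genes over the 30 mice fed high fat, against 0.683% of 12006 genes at the adjusted and 12.2% at the unadjusted threshold in edgeR. The lowest p among the members was that of Myh3 (edgeR, unadjusted p = 0.154), followed by Myh7 (edgeR, unadjusted p = 0.209). Over the 24 running mice alone, 0 of 6 genes were called, against 0.0419% and 8.49% of 11935 genes, and Myh7 had the lowest p (edgeR, unadjusted p = 0.129, adjusted p = 0.704). DESeq2's likelihood ratio test called 0 members in either dose response.

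The other comparison was that of the diets in sedentary mice. NFD-C mice had more of their heavy chain counts on Myh4 and fewer on Myh1, Myh2, Myh7 and Myh3 than HFD-C mice. In edgeR, 0 of 6 genes passed the adjusted threshold, as did 0 of 12247 genes in all, and 1 of 6 passed the unadjusted one against 4.12% of all genes, which was Myh3 at a log2 fold change of -1.82 ± 0.73 (unadjusted p = 0.0243, adjusted p = 0.9996). DESeq2 called 2 genes in all at the adjusted threshold and gave the same counts for the members, with Myh3 at -1.84 ± 0.93 (unadjusted p = 0.0467). All NFD-C libraries were in the set with a high share of counts linked to ribosomal RNA.

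The other members differed by -1.23 ± 0.68 for Myh2, -1.20 ± 1.49 for Myh7, -0.87 ± 0.50 for Myh1, 0.24 ± 0.19 for Myh4 and 0.48 ± 0.35 for Myh8 on the log2 scale. The shares differed by 7.41 points for Myh4 (exact permutation p = 0.113), -3.87 points for Myh1 (exact permutation p = 0.128) and -3.28 points for Myh2 (exact permutation p = 0.117), each with an adjusted p of 0.675 or more over the 6 comparisons.

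Single mice decided how far the diets differed. Without NFD-C mouse 1, which had the highest Myh2, Myh7 and Myh3 shares of its group, 4 of the 6 genes passed the unadjusted threshold in edgeR: Myh1 at a log2 fold change of -1.20, Myh2 at -2.30, Myh7 at -4.23 and Myh3 at -2.79, with adjusted p from 0.424 to 0.709. Without HFD-C mouse 5, Myh1 at -1.08 and Myh3 at -2.04 passed it (edgeR, unadjusted p = 0.0348 and 0.0118), and without NFD-C mouse 2, HFD-C mouse 1 or HFD-C mouse 4 no member did. Among the 10 libraries of the high set only, Myh1 at -1.12, Myh2 at -1.57 and Myh3 at -2.19 passed the unadjusted threshold in edgeR (adjusted p = 0.952 for each). Of all genes, 612 passed it in that set and 377 to 784 with 1 mouse left out, beside 504 of 12247 with all mice.

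Across mice, the levels of the adult fast genes were correlated. Correlations were taken over 36 mice on log2 CPM after the mean of each group was removed, with 100000 permutations within groups and adjustment over 15 pairs. Such permutations treat the mice of a group as exchangeable and do not keep the mouse number of the labels. Mouse numbers took 45.3%, 41.3% and 46.6% of the sum of squares of the Myh4, Myh1 and Myh2 shares. The permutation p values of these and the following pairs may therefore be too small. Myh1 and Myh2 had a positive correlation (r = 0.854, rho = 0.838, permutation p = 1e-05 for both, the smallest that these permutations can give, adjusted p = 7.5e-05 and 0.00015). Without the 2 mice farthest from the median of Myh1, r was 0.831. Within the library sets r was 0.841 over 26 mice and 0.864 over 10.

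Myh4 was negatively correlated with both. Its r was -0.642 with Myh1 (rho = -0.663, permutation p = 1e-05 and 2e-05, adjusted p = 7.5e-05 and 0.00015) and -0.515 with Myh2 (rho = -0.540, permutation p = 0.00068 and 0.00146, adjusted p = 0.00128 and 0.00274). Without the 2 mice farthest from the median of Myh4 these were -0.642 and -0.476. In the low set r was -0.664 and -0.571 over 26 mice, and in the high set -0.635 and -0.413 over 10 mice, where the permutation p was 0.0509 and 0.252.

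**Figure D4:**
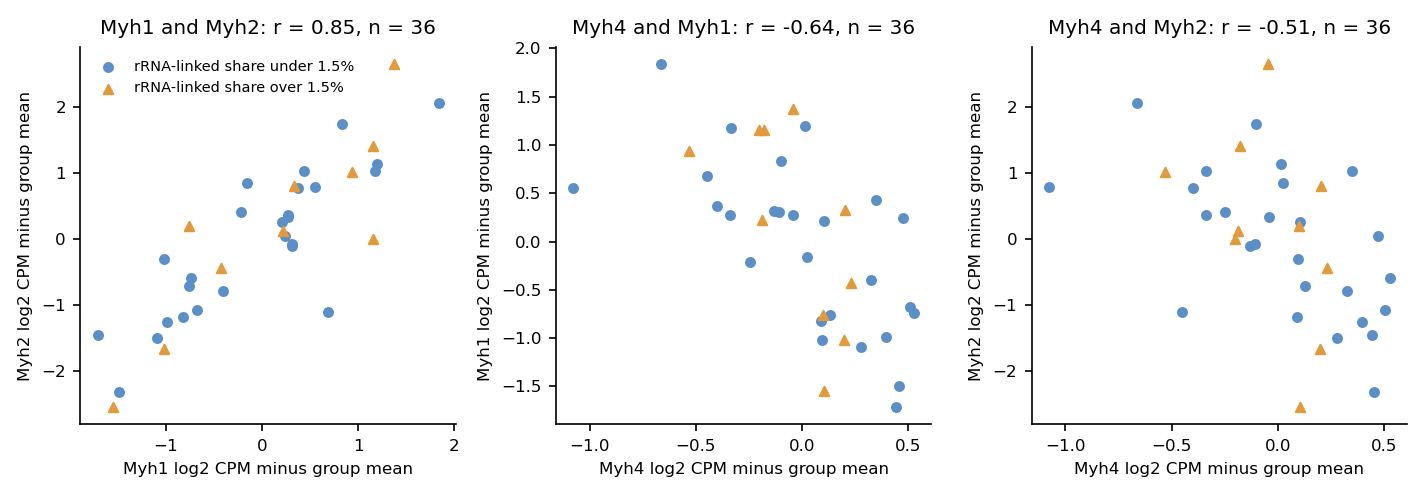
Each point is 1 of 36 mice, plotted as log2 CPM minus the mean of its group, for Myh1 and Myh2 (left), Myh4 and Myh1 (middle) and Myh4 and Myh2 (right), with the library sets in 2 colours. Myh1 and Myh2 rise together with r = 0.85, and both fall as Myh4 rises, with r = -0.64 and -0.51.

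The embryonic gene Myh3 went with the IIA gene Myh2 (r = 0.787, rho = 0.711, permutation p = 2e-05 and 4e-05, adjusted p = 0.0001 and 0.00015) and with Myh1 (r = 0.685, rho = 0.613, permutation p = 5e-05 and 0.00028, adjusted p = 0.000188 and 0.00084). With the neonatal gene Myh8 it had no detectable correlation (r = -0.0215, rho = -0.0608, permutation p = 0.905 and 0.721). Without the 2 mice farthest from the median of Myh2, r of Myh3 with Myh2 was 0.716. Without the 2 farthest from the median of Myh1, r of Myh3 with Myh1 was 0.633. In the low and high library sets r of Myh3 with Myh2 was 0.684 and 0.899. Among 12052 genes, Myh2 stood 11th by likeness to Myh3.

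Myh7 is given over the 29 libraries of its upper range, since the other 7 form a separate group. There it had r = 0.506 with Myh2 (rho = 0.503, permutation p = 0.0141 and 0.0153), 0.579 with Myh3 (rho = 0.551, permutation p = 0.00383 and 0.00726), 0.381 with Myh1 (rho = 0.318, permutation p = 0.0891 and 0.156) and -0.405 with Myh4 (rho = -0.377, permutation p = 0.0432 and 0.0598). Without the 2 mice farthest from the median of Myh2, r of Myh7 with Myh2 fell to 0.342. Without the 2 farthest from the median of Myh7, its r with Myh3 fell to 0.493. These p values were not adjusted, and the r with Myh1 did not pass.

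Myh8 had a positive r with Myh4 (0.456, rho = 0.492, permutation p = 0.00896 and 0.00504, adjusted p = 0.0149 and 0.0084), 0.588 in the low set and 0.0471 in the high set, where the permutation p was 0.872. Its r with Myh1 was -0.0194 and with Myh2 0.0855.

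The genes most like each member over the 36 mice were named by the 5 highest r among 12052 genes, as a description with no test. For Myh4 they were Mybpc2, the fast myosin binding protein C (r = 0.979), Pygm, the muscle glycogen phosphorylase (0.949), Kctd15 (0.910), Sort1 (0.904) and Pitpna (0.903). For Myh1 they were Mybpc1, the slow myosin binding protein C (0.942), Fhl1 (0.939), the thin filament protein gene Lmod2 (0.914), the small heat shock protein gene Hspb7 (0.912) and Lrrn1 (0.912). For Myh2 they were Myom3, an M-band protein of the sarcomere (0.965), Fxyd6 (0.961), Atp1b1, a subunit of the sodium pump (0.936), Bdh1, a ketone body enzyme (0.936), and Fhl1 (0.927).

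For Myh7 the 5 were all slow muscle genes of the contractile apparatus: Tnni1 (0.965), Tnnt1 (0.959), Tnnc1 (0.953), the slow light chain gene Myl3 (0.892) and Tpm3 (0.884). These values span the gap between the 7 and the 29 libraries. For Myh3 they were Myoz2, the slow calsarcin (0.849), Ankrd2 (0.832), Myom3 (0.814), Map6 (0.814) and Inpp5j (0.809), and for Myh8 Arfgap2 (0.788), Pmpca (0.780), Rab5b (0.776), Nf2 (0.772) and Szrd1 (0.771). None of the 5 genes most like Myh8 was on the lists of contractile genes.

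Against a list of 11 slow contractile genes, the median r was 0.878 for Myh7, 0.645 for Myh3, 0.632 for Myh2, 0.387 for Myh1, -0.120 for Myh8 and -0.484 for Myh4, while over all genes it was between -0.0208 and 0.00672 for each member. Against the 10 measured fast contractile genes of a list of 11, the median r was 0.680 for Myh4, -0.0612 for Myh8, -0.401 for Myh7, -0.504 for Myh3, -0.572 for Myh2 and -0.627 for Myh1. The gene left out for its low counts was the fast light chain gene Mylpf. Its mean was 0.798 CPM, beside 10188 CPM for the light chain gene Myl1, and the reason was not tested. Tnnt3, Actn3 and Pvalb of the fast list, for example, had r of 0.48, 0.84 and 0.66 with Myh4 and of -0.61, -0.70 and -0.71 with Myh1.

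**Figure D5:**
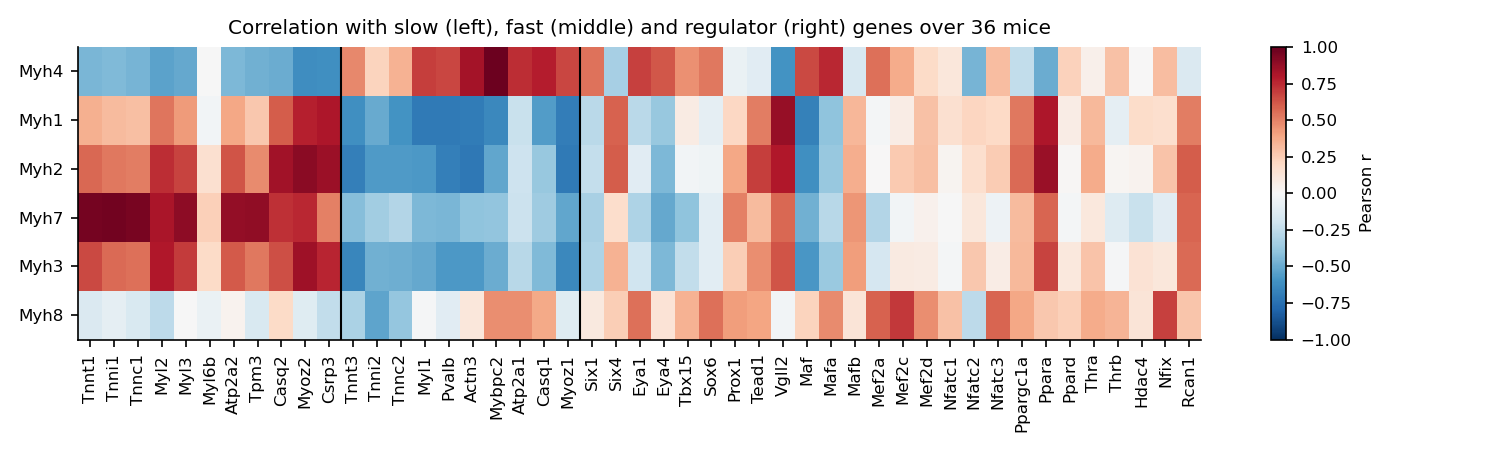
Colours give Pearson's r over 36 mice, on log2 CPM minus group means, between the 6 heavy chain genes (rows) and slow contractile, fast contractile and regulator genes (columns, left to right). The slow block is highest for Myh7, with a median of 0.878, and the fast block is positive for Myh4 and negative for Myh1, Myh2, Myh7 and Myh3.

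Of 26 regulators of fibre type, Mafa, a large Maf factor, had the highest r with Myh4 (0.750), and Vgll2, a cofactor of TEAD factors, the lowest (-0.601). Vgll2 had the highest r with Myh1 (0.869), and Ppara, a lipid-sensing nuclear receptor, the highest with Myh2 (0.863). Maf had the lowest r with both Myh1 (-0.677) and Myh2 (-0.611). Mef2c had the highest with Myh8 (0.708). Markers of blood and endothelial cells had a median r of -0.555 and -0.530 with Myh4, of 0.194 and 0.115 with Myh1 and of 0.226 and 0.228 with Myh2. The summed blood markers ranged from 119 to 407 CPM and the summed endothelial markers from 111 to 429 CPM. The part of blood or capillary RNA in the Myh4 level was not tested.

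Slow and fast contractile genes were called at about the share over all genes, 9.27% of 12006 in running mice (unadjusted threshold). In running mice against HFD-C, 1 of 11 slow contractile genes passed the unadjusted threshold in edgeR, Myl6b at a log2 fold change of -0.38 ± 0.16 (adjusted p = 0.420), with a list median of 0.08. The slow list's median differed between the groups, at 0.13 in HFD-25%, 0.57 in HFD-50%, -0.17 for HFD-75%, -0.55 for HFD-U and -1.18 for NFD-C, each against HFD-C. In HFD-50%, where 10.7% of all genes passed the unadjusted threshold, the 1 of the slow list was Tpm3, at 1.37 ± 0.60 (edgeR, unadjusted p = 0.0363, adjusted p = 0.430). Of 10 fast contractile genes 1 passed it, Pvalb at -0.36 ± 0.17 (adjusted p = 0.539), with a list median of -0.07. Neither list held a gene past the adjusted threshold in edgeR in any comparison, and the median of all genes was near 0.

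Nfatc2, a calcineurin-dependent transcription factor, was the 1 of 26 regulators that fell in running mice past the adjusted threshold, with a log2 fold change of -0.84 ± 0.16 (edgeR, adjusted p = 0.00723). Its level was 18.5 to 30.9 CPM in the 4 HFD-C mice of the high library set, 16.5 and 19.4 CPM in the 2 of the low set and 7.85 to 23.97 CPM in running mice, with a median of 11.6. Its r with Myh1 and Myh2 was 0.22 and 0.17. Maf passed the adjusted threshold in the dose response over 30 mice (edgeR, adjusted p = 0.0411), with mean levels of 128 CPM in HFD-C and, by rising distance, 94.7, 81.8, 98.2 and 118 CPM in the running groups.

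Myl4, the embryonic light chain gene, was the 1 of 12 measured developmental and regeneration genes to fall past the adjusted threshold in running mice (log2 fold change -0.94 ± 0.20, edgeR, adjusted p = 0.0193). It had 10.03 to 22.6 CPM in the HFD-C mice of the high set, 12.9 and 30.1 CPM in those of the low set and 3.51 to 13.9 CPM in running mice. Across mice it was negatively correlated with Myh1 and Myh2, with r of -0.76 and -0.72. At the unadjusted threshold, 6 of 26 regulators were lower and 0 higher, and of the 12 developmental genes 3 were higher and 1 lower, beside 615 lower and 498 higher of 12006 genes (9.27% in all). Among 10 genes of myosin folding and the thick filament, the lowest p was that of the chaperone gene Hsp90aa1 (log2 fold change -0.26 ± 0.09, edgeR, adjusted p = 0.312), and the ubiquitin ligase genes Trim63 and Fbxo32 had 0.68 ± 0.38 and 0.47 ± 0.32. Both passed the unadjusted threshold in HFD-75% and in HFD-50%, where Trim63 had 1.13 ± 0.39 and Fbxo32 0.89 ± 0.36 (edgeR, adjusted p = 0.318 and 0.398), while in HFD-U they had -0.07 ± 0.18 and -0.03 ± 0.20.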

How the data were processed

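Per the labels, poly-A RNA of gastrocnemius from 36 mice was sequenced. The authors deposited 1 table of raw read counts per gene, and the submitters' processing notes name HISAT2 2.0.5, featureCounts 1.5.0-p3, StringTie 1.3.3b, DESeq2 1.20.0, edgeR 3.22.5 and mm10, although the gene coordinates in the table are those of GRCm39. Genes averaging 25 counts or more in the libraries of a comparison were tested with edgeR 4.0.16 (quasi-likelihood test, TMM, Benjamini-Hochberg over all genes, R 4.3.3), with DESeq2 1.42.0 as an alternative. Shares were compared with two-sided exact permutation tests. The scripts were tested on simulated counts. The members and gene lists were chosen with earlier results of these data known. Named genes were the members, list genes at an adjusted p of 0.05 or, if none, the 3 with the smallest p in running mice against HFD-C, and the 5 genes most correlated with each member. Mouse numbers paired the samples in HFD-U against HFD-C, where the deviations of all 6 same-numbered pairs had r over 0.1 (0.121 to 0.501). P-values measure the spread between mice. Upstream sequences came from RefSeq (GRCm38.p6).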

Additional observations from a re-analysis of the deposited data

Results flagged for a closer look

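In 8 of 36 sets of 6 shares, 1 mouse lay farther from the others than Dixon's 95% limit. For normally distributed values chance gives about 1 in 20. Shares such as that of Myh7 were skewed (mean 0.332%, median 0.140% over 36 mice), so that rate may not hold here. HFD-75% mouse 1 had the lowest Myh4 share of its group, 54.1% against 84.7% for the next mouse, and the highest Myh1 share, 26.9% against 10.03%, and Myh2 share, 18.6% against 5.69%. NFD-C mouse 1 had the highest Myh2 share of its group, 6.38% against 1.34%, the highest Myh7 share, 0.695% against 0.0765%, and the highest Myh3 share, 0.0125% against 0.00317%. HFD-25% mouse 6 had the highest Myh7 share of its group, 1.61% against 0.460%, and the highest Myh3 share, 0.0384% against 0.00964%. The shares of a mouse sum to 100%, so the flags of Myh4, Myh1 and Myh2 in HFD-75% mouse 1 are not independent.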

How the results depend on the processing

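No member passed the adjusted threshold in edgeR under any alternative, the smallest adjusted p being 0.270 for Myh1. Counts of members at an unadjusted p of 0.05 moved as follows. With the share linked to ribosomal RNA as a covariate they were 1 in HFD-25%, 1 in HFD-50% and 3 in NFD-C, beside 1636, 1347 and 1025 over all genes. Without a minimum count they were 1 in HFD-U, 3 in NFD-C and 1 in all running mice, beside 2251, 2240 and 3928 over all genes. With the replicate block they were 1 in HFD-50% (Myh1, 0.77, edgeR unadjusted p = 0.0222), 1 in HFD-U, 2 in NFD-C (Myh2 and Myh3) and 1 in all running mice (Myh3, -0.88, edgeR unadjusted p = 0.0484). Over all genes the block gave 1709, 1232, 850 and 1431 in that order. In NFD-C against HFD-C the count was 3 in the high library set, 3 without the mice numbered 1 and 0 without those numbered 2. Over all genes it was 612, 636 and 453. Leaving out 1 mouse gave 0 to 1 member in each running comparison and 0 to 4 in NFD-C. Over all genes that gave 377 to 784 in NFD-C and 969 to 1251 in all running mice. In the running groups it gave 629 to 1083, 1026 to 1644, 514 to 807 and 527 to 829 by rising distance. Without these changes the counts over all genes were 852, 1296, 663 and 657 by rising distance, 504 in NFD-C and 1113 in all running mice.

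For the shares in NFD-C against HFD-C, 1 member passed in the high set (Myh3, -0.0186 points) and 1 without the mice numbered 1 (Myh3, -0.0128 points). Leaving out 1 mouse gave 0 to 3 members, with differences of 5.28 to 9.48 points for Myh4, -5.07 to -2.61 for Myh1, -4.19 to -2.36 for Myh2 and -0.0162 to -0.00728 for Myh3. In all running mice it gave 0 to 1 member, with -0.0113 to -0.00234 points for Myh3, -5.26 to -1.06 for Myh4 and 1.16 to 3.62 for Myh1.

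Of the correlations, those of Myh4 lost significance in the high set with Myh1 (-0.635), Myh2 (-0.413), Myh7 (-0.422), Myh3 (-0.429) and Myh8 (0.0471), where 6 pairs passed in all, and without the mice numbered 2 with Myh7 (-0.317) and Myh8 (0.321). That of Myh1 with Myh7 lost it in the low set (0.244), without the mice numbered 1 (0.339) or 2 (0.362) and in libraries with at least 50 Myh7 counts (0.381). The cause was not tested.

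Over all member values, called or not, signs changed in 70 of 720 edgeR values, 47 of 648 shares and 9 of 80 correlations. Each of these changes was between values without a call. Over all genes, counts at an unadjusted p lay between 377 and 2240 in NFD-C (504 as reported), and between 969 and 3928 in all running mice (1113 as reported). Same-numbered pairs had r over 0.1 in 4 of 6 for HFD-25%, in 5 of 6 for HFD-50%, in 1 of 6 for HFD-75% and in 3 of 6 for NFD-C. By that rule the numbers were not taken to pair those samples. The shares of Myh4, Myh1 and Myh2 nevertheless varied with the mouse number over all groups, and the block moved the counts given above. NFD-C has no library in the low set. Alternatives with the mice numbered 2, the high set in NFD-C and the Myh7 minimum were chosen after seeing the data. Leave-one-out was run only over HFD-C mice for all running mice, and not for the 24 running mice alone.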

Other observations

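The shares of Myh4, Myh1 and Myh2 varied more with the mouse number in the labels than with the group. Of the sum of squares over the 36 mice, groups took 15.2% for Myh4, 16.2% for Myh1 and 13.02% for Myh2, and mouse numbers took 45.3%, 41.3% and 46.6%. For Myh7 these were 20.7% and 21.01%, for Myh3 17.5% and 15.2%, and for Myh8 17.1% and 28.5%. Any split into 6 sets of 6 mice takes some of the sum of squares by chance, and that part was not computed. The mean Myh1 share was 14.2% for the mice numbered 1, 3.63% for those numbered 2, 5.36% for 3, 11.7% for 4, 5.02% for 5 and 9.97% for 6. Mice numbered 2 and 5 were among the lower 3 of their group for Myh1 in all 6 groups. The labels do not say what the number marks, and the pattern was noticed in these data and not tested.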
